A study of Drosophila melanogaster with 18 samples.

Results

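acj6, Deaf1, Antp and pan are 4 Drosophila genes for DNA-binding transcription factors whose transcripts were counted here at a proximal and a distal poly(A) site in adult testes. They were picked by name from 522 genes on the authors' site list, with their site usage and totals in these libraries already known, and hold 8 of 1082 sites. Their values and test calls below are therefore a description, without p-values, and nothing is supported with them. The study sequenced the 3′ ends of polyadenylated RNA from testes in 9 groups of 2 libraries. Control flies had bamGal4 with no RNAi, and each other group had bamGal4 with RNAi against a cleavage or polyadenylation factor. The genotypes were PCF11-KD (PCF11-VDRC-KD in the authors' comparisons) and PCF11-NIG-KD, which are different RNAi lines for PCF11, cbc-KD (line BL 77426), CstF64-KD, CstF50-KD, su(f)-KD, CPSF6-KD and PABP2-KD. All groups shared the driver, which acts in germ cells as they leave the transit-amplifying divisions; the series' text places the knockdowns in spermatocytes. About 150 pairs of testes were pooled per library, so the RNA came from whole organs in which other germ cells and somatic cells also contributed. Crosses were kept at 25 °C for 3 days and the progeny then at 29 °C.

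A pre-mRNA with several poly(A) sites can be cleaved early, which gives a short 3′ UTR, or late, which gives a long one that may hold more sites for microRNAs and RNA-binding proteins. The cleavage machinery is built of modules. CstF64, CstF50 and su(f) form the cleavage stimulation factor, which binds downstream of the cut. Cleavage factor II is made of PCF11 and cbc, the fly Clp1. The cleavage factor I complex contains CPSF6, and PABP2 is the nuclear poly(A)-binding protein. acj6 encodes a POU-homeodomain protein known for choosing odorant receptors in olfactory neurons. Deaf1 encodes a SAND-domain protein that acts in embryonic patterning and in innate immune gene expression. Antp encodes the Hox protein of the thorax. pan encodes the fly TCF, which turns on target genes together with Armadillo when Wnt signalling is on.

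All 8 sites lay in annotated 3′ UTRs of their genes (BDGP6 coordinates, the same gene bounds in the authors' gene models). acj6 (FBgn0000028) is on the minus strand of chromosome X at 15350239 to 15379064. Its proximal site, at 15352663, lay 443 bases past the stop codon in the 3′ UTR of 13 of 13 transcripts. Its distal site, at 15351173, lay 1933 bases past the stop codon in the 3′ UTR of acj6-RD and acj6-RI, 25 bases before the annotated end of acj6-RD. Both of these transcripts have a 3′ UTR intron of 375 bases, from 15351959 to 15352333, between the sites. A spliced distal transcript would therefore be shorter than the genomic distance of 1490 bases says.

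Deaf1 (FBgn0013799) is on the plus strand of 3L at 19818174 to 19830686. Its sites at 19829455 and 19829956 lay 265 and 766 bases past the stop codon, and the annotation carries the distal one in Deaf1-RD alone of 5 transcripts. Antp (FBgn0260642) is on the minus strand of 3R at 6896253 to 6999228, with sites at 6898226 and 6896708, 62 and 1580 bases past the stop codon. pan (FBgn0085432) is on the plus strand of chromosome 4 at 69326 to 114270, with sites at 108578 and 110527, 86 and 2035 bases past the stop codon, the distal one in pan-RR alone. The stop codon used is the one most transcripts share, carried by 11 of 12 for Antp and 7 of 9 for pan. Whether pan-RR carries it was not examined. Introns in the 3′ UTR were looked for in acj6 alone, and all distances are genomic. The sites were 1490, 501, 1518 and 1949 bases apart in acj6, Deaf1, Antp and pan, beside a median of 418 over the 525 genes tested. At least that far apart were the sites of 32 genes for acj6, 211 for Deaf1, 27 for Antp and 13 for pan, each counted with the gene itself.

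**Figure D1:**
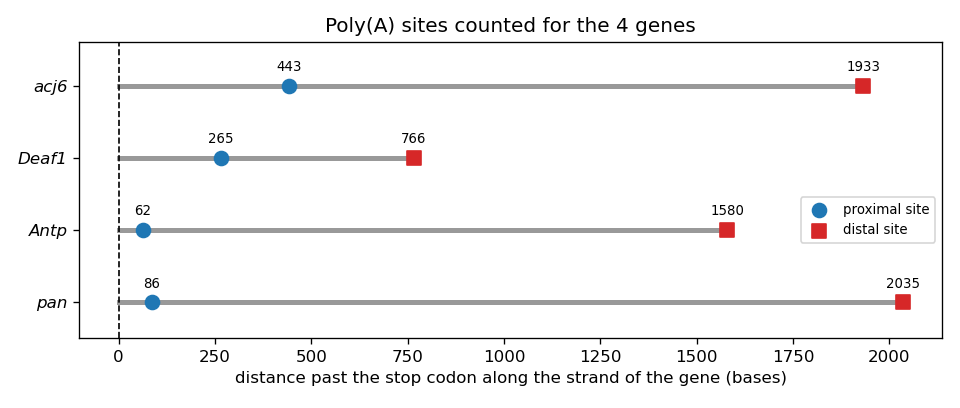
Position of the counted poly(A) sites of the 4 genes as genomic bases past the most shared stop codon along the gene's strand, with circles for proximal and squares for distal sites. The distal site lay 1933, 766, 1580 and 2035 bases past the stop codon in acj6, Deaf1, Antp and pan.

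A second gene covers both Antp sites. CG46458 (FBgn0287588), of 1 transcript, lies on the same strand from 6896253 to 6958370, so counts at these sites cannot be told apart from counts of CG46458 and are reported for Antp with that limit. No other annotated gene covered the sites of acj6, Deaf1 or pan. Counting took no account of strand.

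Library totals ran from 342763 to 819286 counts. Levels are given as CPM, counts scaled to the effective library size over the genes on this list, so a change common to most listed genes would not show. In testes, fewer cells of a type and less RNA per cell cannot be told apart. None of the knocked-down factors is measured on the list, so their remaining level is not analysed here. Of the markers of cell types, zfh1 (1 of 6 somatic cyst cell markers), chinmo (1 of 6 early germline), CycB and twe (2 of 16 spermatocyte) and m-cup, nes and r-cup (3 of 17 spermatid) were measured, and 0 of those for hub, muscle sheath, neurons, or fat body and haemocytes. Whether a marker, chinmo included, is confined to the cell type it was listed for was not examined. The labels do not say whether duplicates came from separate crosses, and the spread may be technical. Sample numbers in the column names recur between control and PABP2-KD, PCF11-KD and CPSF6-KD, su(f)-KD and CstF50-KD, and PCF11-NIG-KD and CstF64-KD, so more than 1 sample sheet was used and sheet and group cannot be told apart.

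The use of the acj6 sites moved toward the distal one in 6 of 8 knockdowns and toward the proximal one in CstF50-KD. In control libraries 73.3% and 81.5% of acj6 counts lay at the proximal site (307 of 419 and 457 of 561 counts). In cbc-KD the proximal share was 13.5% and 10.6% (31 of 230 and 24 of 226). In PCF11-KD it was 25.6% and 29.5% (148 of 579 and 192 of 651). Both cbc-KD and PCF11-KD libraries lay far below both controls, and the gene that was mostly short in control was mostly long in these groups.

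In su(f)-KD the acj6 proximal share was 41.5% and 40.5% (of 585 and 684 counts), and in CstF64-KD it was 56.5% and 48.8% (of 767 and 477). In PABP2-KD it was 56.8% and 63.1% (of 192 and 157 counts), and in PCF11-NIG-KD it was 64.7% and 66.9% (of 462 and 444). All 8 of these libraries lay below both controls. In CPSF6-KD the share was 84.5% and 80.0%, which overlapped the controls, and in CstF50-KD it was 88.7% and 89.2%, above both of them.

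As group means the order for acj6 was 12.05% ± 2.02 (SD, n = 2) in cbc-KD, 27.5% ± 2.78 in PCF11-KD, 41.0% ± 0.736 in su(f)-KD, 52.7% ± 5.38 in CstF64-KD, 59.9% ± 4.45 in PABP2-KD, 65.8% ± 1.54 in PCF11-NIG-KD, 77.4% ± 5.79 in control, 82.3% ± 3.24 in CPSF6-KD and 88.9% ± 0.380 in CstF50-KD. Control and CPSF6-KD were the only neighbours in this order whose libraries overlapped. The distance from the lowest to the highest group was 76.9 points, place 14 of 525 genes by that measure, beside a median of 37.9. In single libraries the Wilson 95% intervals, which cover counting error only, ran from 7.24% to 15.3% in the lowest (cbc-KD replicate 2) and from 86.7% to 91.3% in the highest (CstF50-KD replicate 2).

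**Figure D2:**
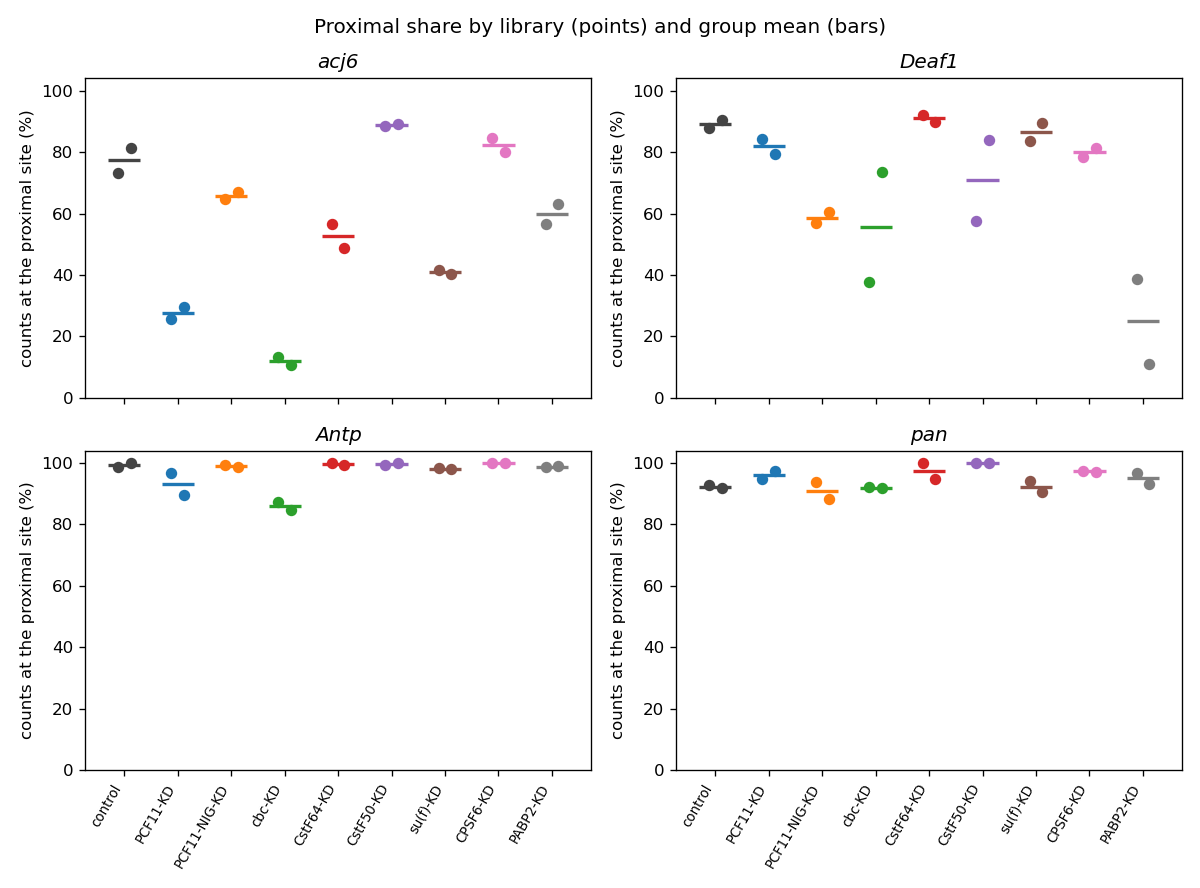
Share of counts that lay at the proximal site, in percent, in each of 18 libraries (points) with group means (horizontal lines), for acj6, Deaf1, Antp and pan. acj6 ran from 10.6% in a cbc-KD library to 89.2% in a CstF50-KD library, while the lowest library was at 84.6% for Antp and 88.1% for pan.

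On the scale of log2 odds of proximal against distal use, from edgeR over 525 genes, the change of acj6 was -4.66 ± 0.31 (SE) in cbc-KD, where the median of all genes was -1.76. It was -3.19 ± 0.28 in PCF11-KD (median -0.84), -2.32 ± 0.28 in su(f)-KD (median -0.23) and -1.64 ± 0.28 in CstF64-KD, where the median was on the other side at 0.24. It was -1.22 ± 0.29 in PABP2-KD (median -0.46), -0.85 ± 0.28 in PCF11-NIG-KD (median -0.56) and 1.21 ± 0.28 in CstF50-KD (median 0.75). Each of these 7 passed the test at an adjusted p under 0.05. The change of 0.42 ± 0.29 in CPSF6-KD did not. The CstF64-KD and CstF50-KD values were of opposite sign. In CstF64-KD 30 of 525 genes, acj6 included, had a change in share as low or lower (-24.7 points, beside a median of 1.07).

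Single libraries decided some acj6 calls. The call in PCF11-NIG-KD ended without control replicate 2 (-0.51) or without PCF11-NIG-KD replicate 1 (-0.78) or 2 (-0.92), and that in CstF50-KD ended without control replicate 1 (0.87). The PABP2-KD call ended when only its libraries and the controls were fitted (-1.22).

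The levels of the single sites differed in kind between these groups. At the acj6 proximal site the controls had 860 and 1396 CPM and the cbc-KD libraries 59.5 and 43.8 CPM, a log2 change of -4.44 ± 0.31 that passed the test. At the distal site the controls had 314 and 318 CPM and the cbc-KD libraries 382 and 368 CPM, a log2 change of 0.25 ± 0.20 that did not pass. In cbc-KD, then, the level of the proximal site fell and the distal site's level did not pass. With library totals as the scaling, which raised the median total of all genes in cbc-KD by 0.33, the distal value passed as higher (0.58).

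In PCF11-KD the acj6 proximal site fell to 276 and 424 CPM (-1.69 ± 0.26) and the distal site rose to 803 and 1013 CPM (1.52 ± 0.20). In su(f)-KD the proximal site fell to 438 and 534 CPM (-1.21 ± 0.25) and the distal site rose to 617 and 784 CPM (1.15 ± 0.20). In CstF64-KD the distal site rose to 609 and 651 CPM (0.99 ± 0.20) and the proximal site fell to 789 and 621 CPM (-0.67 ± 0.25). In these 3 groups the sites moved in opposite directions. The CstF64-KD call at the proximal site ended without any 1 of 9 libraries: control replicate 2 (-0.23), CstF64-KD replicate 1 (-0.86) or 2 (-0.51), both PCF11-NIG-KD and both CstF50-KD libraries, cbc-KD replicate 1 and CPSF6-KD replicate 1 (-0.68 to -0.62).

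In PABP2-KD both acj6 sites fell, the proximal one to 125 and 169 CPM (-2.95 ± 0.27) and the distal one to 95.5 and 98.8 CPM (-1.70 ± 0.22). In PCF11-NIG-KD both fell too, the proximal site to 378 and 441 CPM (-1.46 ± 0.25) and the distal site to 206 and 218 CPM (-0.57 ± 0.21). The distal call there ended without any 1 of 8 libraries, namely both controls, both PCF11-NIG-KD libraries, PCF11-KD replicate 2, cbc-KD replicate 1, CstF50-KD replicate 2 and CPSF6-KD replicate 1 (-0.58 to -0.41), and with DESeq2 (-0.55). In CstF50-KD the distal site fell to 201 and 172 CPM (-0.76 ± 0.21), a call that ended without control replicate 2 (-0.70) or CstF50-KD replicate 2 (-0.62). The proximal site there, at 1570 and 1418 CPM, changed by 0.41 ± 0.25, which did not pass but did without control replicate 2 (0.85). In CPSF6-KD neither site passed, although the distal one did without CPSF6-KD replicate 2 (-0.73).

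**Figure D3:**
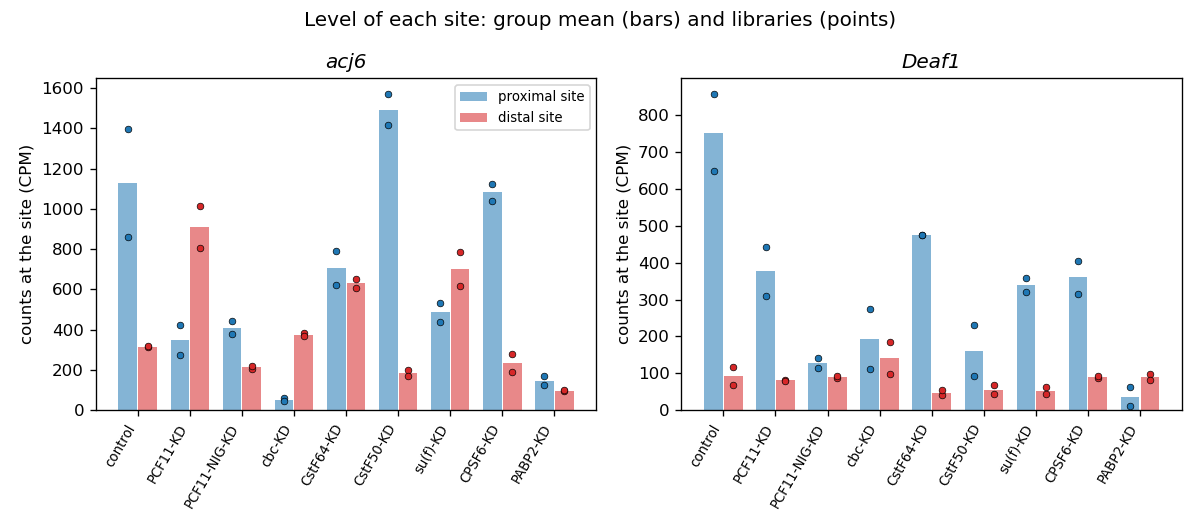
CPM at the proximal and the distal site of acj6 and Deaf1 in each group, as group means (bars) and libraries (points). In acj6 the distal site stood above the proximal one in PCF11-KD, cbc-KD and su(f)-KD, while the Deaf1 distal site ranged from 40.1 to 184 CPM over all libraries.

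The total of acj6 fell in 3 knockdowns. The controls had 1173 and 1713 CPM, PABP2-KD had 221 and 267 CPM (0.169 of the control mean, log2 change -2.57 ± 0.21), cbc-KD had 441 and 412 CPM (0.296 of control, -1.76 ± 0.20) and PCF11-NIG-KD had 584 and 660 CPM (0.431 of control, -1.21 ± 0.20). The libraries of these 3 groups lay below both controls and did not overlap each other. In the other 5 knockdowns the libraries overlapped the controls and the total did not pass, with log2 changes from -0.28 in su(f)-KD to 0.22 in CstF50-KD; the su(f)-KD value passed when only its libraries and the controls were fitted (-0.30). The greater part of the control spread was in the proximal site, whose level differed between the control libraries while the distal levels were close.

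Deaf1 showed another order. Its proximal share was 87.9% and 90.6% in the controls (306 of 348 and 212 of 234 counts). In PABP2-KD it was 38.8% and 11.1% (54 of 139 and 6 of 54 counts), in PCF11-NIG-KD 56.9% and 60.4% (91 of 160 and 96 of 159), and in cbc-KD 37.7% and 73.7% (58 of 154 and 151 of 205). These 3 groups moved toward the distal site by the test, with all their libraries below both controls. The PABP2-KD and cbc-KD duplicates stood far apart from each other, beyond counting error: the Wilson intervals were 31.2% to 47.1% and 5.19% to 22.2% in PABP2-KD, and 30.4% to 45.5% and 67.2% to 79.2% in cbc-KD.

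In CstF50-KD the Deaf1 share was also split, at 57.7% and 84.0% (45 of 78 and 105 of 125 counts). It was 78.5% and 81.3% in CPSF6-KD, 84.4% and 79.5% in PCF11-KD, 83.6% and 89.4% in su(f)-KD and 92.2% and 89.9% in CstF64-KD. su(f)-KD and CstF64-KD overlapped the controls, and the others lay below them without passing the test. As means ± SD the order was 25.0% ± 19.6 in PABP2-KD, 55.7% ± 25.5 in cbc-KD, 58.6% ± 2.48 in PCF11-NIG-KD, 70.8% ± 18.6 in CstF50-KD, 79.9% ± 1.98 in CPSF6-KD, 82.0% ± 3.43 in PCF11-KD, 86.5% ± 4.14 in su(f)-KD, 89.3% ± 1.89 in control and 91.0% ± 1.63 in CstF64-KD. Every pair of neighbours in this order overlapped, so the order is loose.

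The change of Deaf1 in log2 odds was -4.45 ± 0.79 in PABP2-KD, -2.65 ± 0.74 in cbc-KD and -2.54 ± 0.74 in PCF11-NIG-KD. In PABP2-KD only 3 of 525 genes, Deaf1 included, had a change in share of this size or lower (-64.3 points, beside a median of -2.62). Without PABP2-KD replicates 1 and 2 in turn the value was -6.01 and -3.69. The cbc-KD call ended without cbc-KD replicate 1 (-1.56), where without replicate 2 the value was -3.77. The PCF11-NIG-KD call ended without control replicate 2 (-2.36) or PCF11-NIG-KD replicate 1 (-2.44). The CstF50-KD value of -1.63 ± 0.79 did not pass with all libraries and did without CstF50-KD replicate 2 (-2.60).

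The total of Deaf1 was lower than in control in 8 of 8 knockdowns, each past the test and with no library overlapping the controls. By knockdown, 17% to 30.1% of all genes passed as lower, and the share without overlap is not given here. All 8 comparisons share the same control libraries, so they are not independent. The controls had 974 and 715 CPM. PABP2-KD had 160 and 92.0 CPM (0.149 of the control mean, log2 change -2.72 ± 0.29), CstF50-KD 158 and 275 CPM (0.257, -1.97 ± 0.29) and PCF11-NIG-KD 202 and 236 CPM (0.260, -1.95 ± 0.28). cbc-KD had 295 and 374 CPM (0.396, -1.34 ± 0.27) and su(f)-KD 384 and 401 CPM (0.465, -1.11 ± 0.27). The losses were smallest in CPSF6-KD with 402 and 497 CPM (0.532, -0.91 ± 0.27), PCF11-KD with 526 and 389 CPM (0.541, -0.88 ± 0.27) and CstF64-KD with 514 and 528 CPM (0.617, -0.70 ± 0.27).

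The smaller of these Deaf1 losses rested on single libraries, each value being the one without the named library. The PCF11-KD call ended without control replicate 1 (-0.64) or PCF11-KD replicate 2 (-0.63), the su(f)-KD call without control replicate 1 (-0.86), and the CPSF6-KD call without control replicate 1 (-0.67) or CPSF6-KD replicate 1 (-0.71). The CstF64-KD call ended without 12 of the 18 libraries, with values from -0.85 to -0.46, among them both controls and both CstF64-KD libraries. The other 8 were both PCF11-NIG-KD, both su(f)-KD and both CPSF6-KD libraries, PCF11-KD replicate 2 and cbc-KD replicate 1. The CstF64-KD call also ended with library totals as the scaling (-0.67) and with the replicate block (-0.70).

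At the level of the Deaf1 sites, the proximal one fell and the distal one did not pass in 4 knockdowns. The proximal site had 857 and 647 CPM in the controls, 62.1 and 10.2 CPM in PABP2-KD (-4.27 ± 0.57), 115.0 and 143 CPM in PCF11-NIG-KD (-2.55 ± 0.51), 91.3 and 231 CPM in CstF50-KD (-2.23 ± 0.51) and 111 and 275 CPM in cbc-KD (-1.96 ± 0.50). The distal site had 118 and 67.2 CPM in the controls and 97.8 and 81.7 CPM in PABP2-KD (-0.04 ± 0.35). Its changes in PCF11-NIG-KD, CstF50-KD and cbc-KD were -0.04 ± 0.35, -0.73 ± 0.38 and 0.60 ± 0.34. The cbc-KD distal value passed, as higher, without control replicate 1 (1.07) or cbc-KD replicate 2 (0.99) and with library totals as the scaling (0.93). Without PABP2-KD replicate 1 the proximal change there was -6.17, without replicate 2 -3.59. Without the second library of cbc-KD and of CstF50-KD the proximal changes were -2.76 and -3.01.

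In CstF64-KD the Deaf1 distal site fell to 40.1 and 53.3 CPM (-1.01 ± 0.39), a call that ended without any 1 of 10 libraries, with values from -1.21 to -0.54, and with DESeq2 (-1.01). The libraries were control replicate 1, both libraries of CstF64-KD, PCF11-KD, PCF11-NIG-KD and CPSF6-KD, and CstF50-KD replicate 2. The Deaf1 proximal site in PCF11-KD, su(f)-KD and CPSF6-KD had changes of -0.997, -1.15 and -1.06, which did not pass with all libraries and passed without either PABP2-KD library, and in su(f)-KD also without either cbc-KD library or CstF50-KD replicate 1. They also passed when only the controls and that knockdown were fitted (-0.99, -1.17 and -1.07), as did the CstF64-KD value (-0.67). The su(f)-KD proximal value passed with DESeq2 and with its size factors as well (-1.18 in both). The su(f)-KD distal value of -0.81 passed without control replicate 2 (-1.09) and with only the controls and su(f)-KD (-0.83).

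The total of zfh1, the 1 measured gene listed as a somatic cyst cell marker, fell in 8 of 8 knockdowns. Of all genes, 17% (CPSF6-KD) to 30.1% (cbc-KD) passed as lower, by knockdown. zfh1 had 456 to 482 CPM in control and 69.1 to 112 CPM in PABP2-KD. It had 137 to 143 CPM in PCF11-KD, 123 to 126 in PCF11-NIG-KD, 151 to 153 in cbc-KD, 144 to 187 in CstF64-KD, 191 to 231 in CstF50-KD, 175 to 187 in su(f)-KD and 100.4 to 155 in CPSF6-KD. Other markers moved differently. chinmo passed as higher in PCF11-KD, cbc-KD, CstF64-KD, su(f)-KD and PABP2-KD. m-cup passed as lower in PCF11-KD, PCF11-NIG-KD, cbc-KD and PABP2-KD and as higher in CPSF6-KD. r-cup passed as higher in PCF11-KD, CstF64-KD and su(f)-KD, and nes in cbc-KD and PABP2-KD. The part of somatic cells in the Deaf1 totals was not tested.

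**Figure D4:**
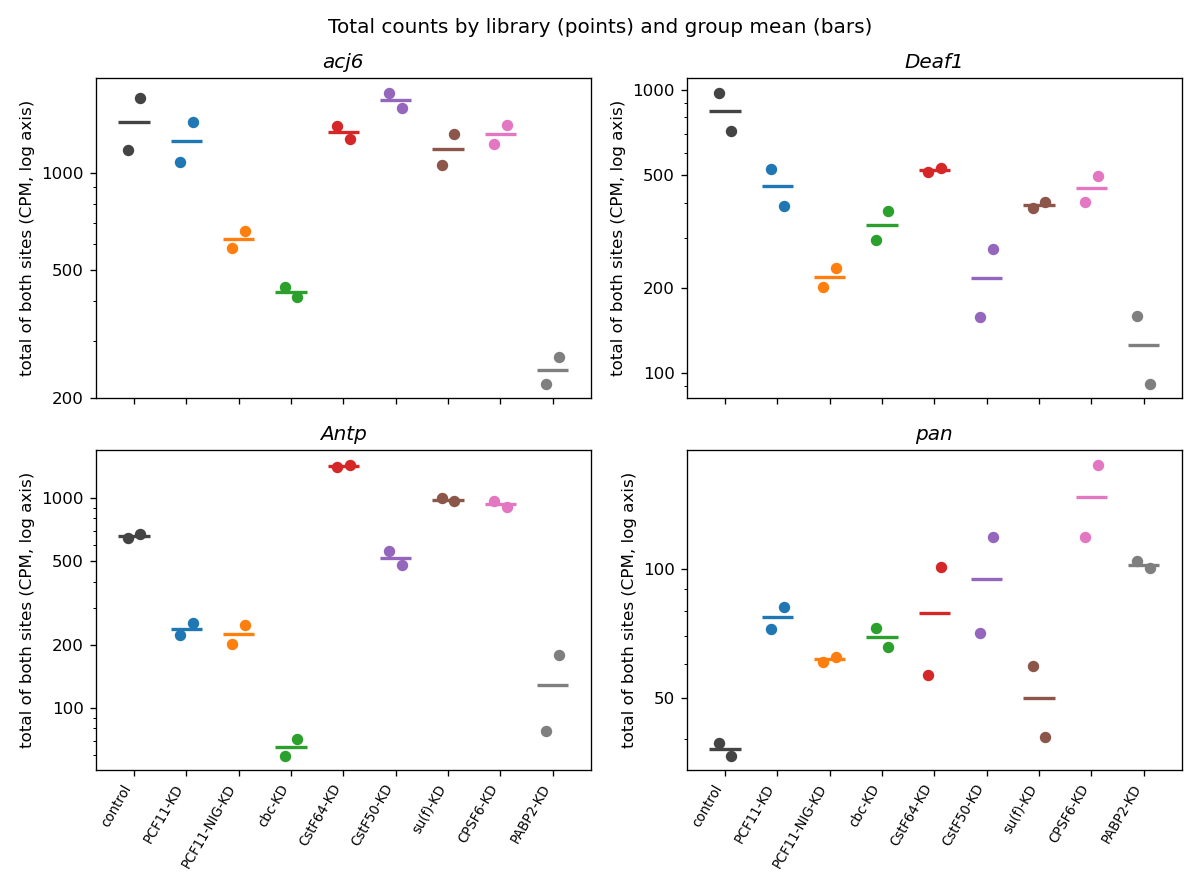
Total of both sites in CPM (log axis) in each library (points) with group means (horizontal lines). Deaf1 lay below the controls in every knockdown library and pan above them, while Antp ran from 59.5 CPM in a cbc-KD library to 1440 CPM in a CstF64-KD library.

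Antp was cut almost wholly at its proximal site in control testes and moved toward the distal site in PCF11-KD and cbc-KD. The controls had 3 distal of 231 counts and 0 of 222. PCF11-KD had 4 distal of 120 and 12 of 115, a proximal share of 96.7% and 89.6%. cbc-KD had 4 distal of 31 and 6 of 39, a proximal share of 87.1% and 84.6%. Both groups lay below both controls in all their libraries, on few distal counts. The distal level was 8.40 and 0 CPM in control, 7.67 and 10.9 CPM in cbc-KD and 7.45 and 26.5 CPM in PCF11-KD. The proximal level was 638 and 678 CPM in control, 51.8 and 60.2 CPM in cbc-KD and 216 and 227 CPM in PCF11-KD. In cbc-KD the share thus moved mainly with the loss at the proximal site.

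The proximal share of Antp, as mean ± SD, was 85.9% ± 1.75 in cbc-KD, 93.1% ± 5.02 in PCF11-KD, 98.1% ± 0.137 in su(f)-KD, 98.8% ± 0.366 in PABP2-KD, 99.1% ± 0.405 in PCF11-NIG-KD, 99.4% ± 0.918 in control, 99.6% ± 0.432 in CstF64-KD and 99.6% ± 0.512 in CstF50-KD. In CPSF6-KD there were 0 distal counts of 684, which allows a distal share of up to 0.439% (3 counts). su(f)-KD, with 10 of 555 and 10 of 501 distal counts, lay below both controls and did not pass. From PABP2-KD upward in this order every neighbouring pair overlapped.

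The change of Antp in log2 odds was -3.39 ± 0.98 in PCF11-KD and -4.59 ± 1.07 in cbc-KD. The PCF11-KD call ended without control replicate 2 (-2.43) or PCF11-KD replicate 2 (-2.35), and without PCF11-KD replicate 1 the value was -4.07. The cbc-KD call held without each library in turn. Its value was -3.64 without control replicate 2. Without control replicate 1 both calls held, but no fold is given, since the control left had 0 distal counts.

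The total of Antp moved in both directions. The controls had 647 and 678 CPM, cbc-KD 59.5 and 71.1 CPM (0.0986 of the control mean, log2 change -3.34 ± 0.29), PABP2-KD 78.3 and 179 CPM (0.194, -2.40 ± 0.27), PCF11-NIG-KD 202 and 248 CPM (0.340, -1.56 ± 0.25) and PCF11-KD 224 and 254 CPM (0.360, -1.47 ± 0.26). These 4 falls passed the test, and the PABP2-KD value was -3.08 without PABP2-KD replicate 2. CstF64-KD rose to 1409 and 1440 CPM (2.15 of control, 1.10 ± 0.24).

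su(f)-KD with 1001 and 965 CPM (0.57 ± 0.24) and CPSF6-KD with 964 and 904 CPM (0.50 ± 0.24) lay above both controls, and CstF50-KD with 560 and 482 CPM (-0.35 ± 0.25) lay below them, none past the test. The su(f)-KD and CPSF6-KD values did pass when only their own libraries and the controls were fitted (0.55 and 0.49) and without either PABP2-KD library (0.57 and 0.50), and the su(f)-KD value also without cbc-KD replicate 1 (0.63) and with library totals as the scaling (0.68). The level of the Antp proximal site, which carried nearly all of the counts, passed in the same 5 knockdowns as the total, with log2 changes of -1.57 ± 0.26 in PCF11-KD, -1.56 ± 0.26 in PCF11-NIG-KD, -3.55 ± 0.30 in cbc-KD, 1.11 ± 0.25 in CstF64-KD and -2.40 ± 0.27 in PABP2-KD (-3.09 without PABP2-KD replicate 2). Its su(f)-KD and CPSF6-KD values of 0.55 and 0.50 passed without either PABP2-KD library and with only the controls and that knockdown (0.53 and 0.50), and the su(f)-KD value also with library totals as the scaling (0.66). The distal site, with fewer than 10 counts per library on average, was not tested.

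pan was the least counted of the 4, with 14 and 12 counts in the control libraries and a mean of 41 per library over all. Its total was higher than in both controls in every knockdown library, and the rise passed the test in 5 of 8 knockdowns. By knockdown, 18.1% to 32.6% of all genes passed as higher, and the share above both controls throughout is not given here. All 8 comparisons share these control libraries with few counts, so they are not independent. The controls had 39.2 and 36.6 CPM. CPSF6-KD had 119 and 176 CPM (3.89 of the control mean, log2 change 1.96 ± 0.37), PABP2-KD 105 and 100.5 CPM (2.71, 1.43 ± 0.36), CstF50-KD 71.0 and 119 CPM (2.50, 1.31 ± 0.38), CstF64-KD 56.5 and 101 CPM (2.08, 1.01 ± 0.39) and PCF11-KD 72.7 and 81.7 CPM (2.04, 1.02 ± 0.38). cbc-KD with 72.9 and 65.6 CPM (0.86 ± 0.39), PCF11-NIG-KD with 60.7 and 62.4 CPM (0.69 ± 0.38) and su(f)-KD with 59.5 and 40.4 CPM (0.40 ± 0.40) did not pass.

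The pan calls in CPSF6-KD and PABP2-KD held without each library in turn. The PCF11-KD call ended without any 1 of the 4 libraries compared (0.99 to 1.10) and with DESeq2 (0.98). The CstF64-KD call ended without control replicate 1 (1.06) or 2 (1.02), CstF64-KD replicate 2 (0.57) or PCF11-KD replicate 1 (1.01), with DESeq2 (1.02) and with the controls and this knockdown alone (0.99). The CstF50-KD call ended without control replicate 1 (1.36) or 2 (1.32) or CstF50-KD replicate 2 (0.93). At the pan proximal site the same 5 knockdowns passed, with log2 changes of 2.03 ± 0.37 in CPSF6-KD, 1.47 ± 0.37 in PABP2-KD, 1.43 ± 0.38 in CstF50-KD, 1.09 ± 0.39 in CstF64-KD and 1.07 ± 0.39 in PCF11-KD. There the PCF11-KD call ended without any 1 of the 4 libraries compared (1.03 to 1.18) and with DESeq2 (1.03), the CstF64-KD call with DESeq2 (1.09) or without control replicate 1 (1.15) or 2 (1.09) or CstF64-KD replicate 2 (0.69), and the CstF50-KD call without CstF50-KD replicate 2 (1.05). The total in cbc-KD passed without either CstF64-KD library (0.86) or CstF50-KD replicate 1 (0.88), and with library totals as the scaling (1.20), and the proximal site there without CstF50-KD replicate 1 (0.87) and with library totals as the scaling (1.19).

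The summed level of CycB and twe, 2 of 16 spermatocyte markers, was higher in every knockdown library than in control. It was 2263 to 2721 CPM in control, 4115 to 4475 in PCF11-KD, 3217 to 3775 in PCF11-NIG-KD, 4072 to 4324 in cbc-KD, 5864 to 6134 in CstF64-KD and 3878 to 4004 in CstF50-KD. It was 5882 to 5886 in su(f)-KD, 3228 to 3638 in CPSF6-KD and 5696 to 9821 in PABP2-KD. The sum itself was not tested, and every knockdown was set against the same control libraries. By knockdown, 18.1% to 32.6% of all genes passed as higher. Taken singly, CycB did not pass in PCF11-NIG-KD (log2 change 0.50), cbc-KD (0.29) or CPSF6-KD (0.51), and twe did not in CPSF6-KD (0.37). In CPSF6-KD neither marker passed singly, although both changes were positive and the summed level lay above control. The part of spermatocytes in the pan totals was not tested.

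Little can be read from the use of the pan sites. The distal site had 1 count in each control library and at most 5 in any library. The proximal share was 92.9% and 91.7% in control, with Wilson intervals of 68.5% to 98.7% and 64.6% to 98.5%. Group means ran from 90.9% ± 3.999 in PCF11-NIG-KD, over 91.9% ± 0.310 in cbc-KD, 92.2% ± 2.45 in su(f)-KD, 92.3% ± 0.842 in control, 94.96% ± 2.46 in PABP2-KD, 96.1% ± 1.72 in PCF11-KD, 97.3% ± 0.253 in CPSF6-KD and 97.4% ± 3.72 in CstF64-KD, to CstF50-KD with 0 distal counts of 89, which allows up to 3.37%. The CstF50-KD difference passed as a move toward proximal use, on 2 distal counts of 26 in control, and ended without any 1 of the 4 libraries compared, with DESeq2, and with the controls and CstF50-KD alone. The libraries of PABP2-KD, PCF11-KD, CPSF6-KD and CstF64-KD also lay above both controls and did not pass.

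**Figure D5:**
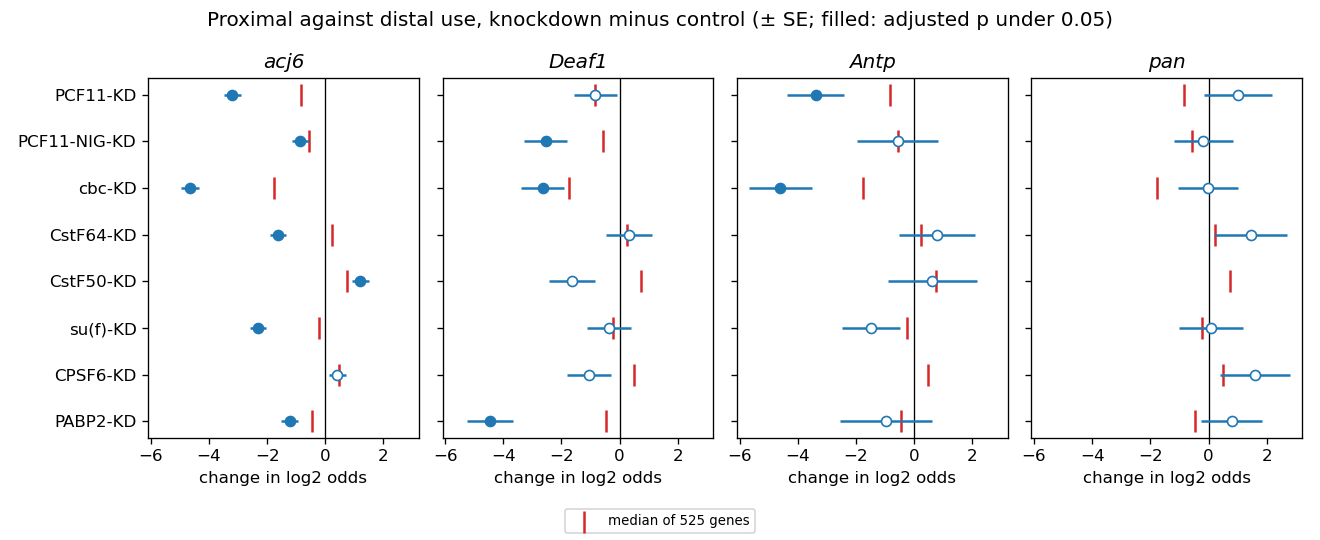
Change in log2 odds of proximal against distal use, knockdown minus control, for each gene (points with SE bars, filled where adjusted p was under 0.05) and the median of all tested genes (vertical ticks). acj6 lay left of the median in every knockdown but CstF50-KD (1.21 beside 0.75), close to it in CPSF6-KD (0.42 beside 0.48), and points are left out where a group had 0 distal counts.

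Counted over the 4 genes, site use moved toward the distal site in 3 of 4 in cbc-KD (background over 525 genes 60.6%), 2 in PCF11-KD (43.8%), 2 in PCF11-NIG-KD (33.9%), 2 in PABP2-KD (37.3%), 1 in CstF64-KD (17.7%), 1 in su(f)-KD (26.1%), 0 in CstF50-KD (6.86%) and 0 in CPSF6-KD (14.7%). Toward the proximal site there were 2 of 4 in CstF50-KD (background 33.9%) and 0 in each other knockdown. The backgrounds for that direction were 6.67% in cbc-KD, 9.52% in PCF11-KD, 12.4% in PCF11-NIG-KD, 21.7% in PABP2-KD, 21.1% in CstF64-KD, 11.6% in su(f)-KD and 24.2% in CPSF6-KD. In all, 13 of 32 pairs of gene and knockdown passed. All 8 comparisons share the same control libraries, and the rule that chose the genes used these values, so nothing is read from the counts.

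For totals, 3 of 4 genes were lower in PCF11-NIG-KD (background 22.9%), cbc-KD (30.1%) and PABP2-KD (29.5%), 2 in PCF11-KD (21.9%), and 1 each, Deaf1, in CstF64-KD (23.6%), CstF50-KD (17.5%), su(f)-KD (25%) and CPSF6-KD (17%). Higher totals passed in 2 of 4 genes in CstF64-KD (background 24%), in 1, pan, in PCF11-KD (23.6%), CstF50-KD (18.1%), CPSF6-KD (20.6%) and PABP2-KD (32.6%), and in 0 in PCF11-NIG-KD (20.8%), cbc-KD (32.6%) and su(f)-KD (25.3%). In all, 21 of 32 pairs passed.

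Of the 8 sites, 6 averaged 10 or more counts in a library and were tested, the distal sites of Antp and pan being left out. Of these 6, the level passed in either direction for 4 in PCF11-KD (background over 1016 sites 53.2%), 4 in PCF11-NIG-KD (47.6%), 3 in cbc-KD (68.1%), 5 in CstF64-KD (46.8%), 3 in CstF50-KD (40%), 2 in su(f)-KD (49.7%), 1 in CPSF6-KD (39.9%) and 5 in PABP2-KD (63.1%).

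The PCF11 lines were also set against each other directly. For site use 2 of 4 genes passed (background 22.7%). acj6 was less distal in PCF11-NIG-KD than in PCF11-KD by 2.34 ± 0.28 in log2 odds, and Antp by 2.82 ± 0.99. The Antp call ended with DESeq2 (2.90), with the replicate block (2.82), and without PCF11-KD replicate 2 (1.78), without either PCF11-NIG-KD library (2.47 and 3.27) or without any 1 library of cbc-KD, su(f)-KD or CPSF6-KD (2.82 to 2.83). Deaf1 was on the other side at -1.70 ± 0.73, which did not pass, and pan was at -1.20 ± 0.85, which did not either. For totals 2 of 4 passed (background 12.2%), acj6 and Deaf1 being lower in PCF11-NIG-KD by log2 changes of -1.02 ± 0.19 and -1.06 ± 0.28. The acj6 call ended without PCF11-KD replicate 2 (-0.72) or PCF11-NIG-KD replicate 1 (-0.88), and the Deaf1 call without any 1 of the 4 libraries (-1.19 to -0.83). For site levels 2 of 6 passed (background 18%), the acj6 distal site (-2.10 ± 0.20) and the Deaf1 proximal site (-1.55 ± 0.50). The Deaf1 call at that site ended without any 1 of 12 libraries (-1.71 to -1.26), those of both PCF11 lines, the controls, CstF64-KD, su(f)-KD and CPSF6-KD, and with the replicate block and library totals as the scaling (-1.56 in both). The acj6 proximal site was nearly level between the lines (0.23 ± 0.26).

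Of 302 names looked for on a list made for other sequence-specific transcription factors, 17 genes were on the site list, in 18 entries because lola has a pair of them. The names include aliases of the same gene and proteins not known to bind specific DNA sequences, so 302 is not a count of factors. In cbc-KD 13 of 18 entries moved toward the distal site and 0 toward the proximal one, with a median of -2.31 in log2 odds beside -1.76 over all genes. In PCF11-KD 9 moved distal and 1 proximal (median -1.69 beside -0.84), and in PCF11-NIG-KD 8 and 2 (-0.74 beside -0.56). In su(f)-KD 4 moved distal and 1 proximal (-0.19 beside -0.23), in CstF64-KD 3 and 1 (0.44 beside 0.24), in CPSF6-KD 5 and 4 (0.34 beside 0.48), in PABP2-KD 5 and 2 (-0.43 beside -0.46) and in CstF50-KD 0 and 5 (1.07 beside 0.75). Of all 525 genes 60.6% moved distal and 6.67% proximal in cbc-KD, 43.8% and 9.52% in PCF11-KD, 33.9% and 12.4% in PCF11-NIG-KD, 26.1% and 11.6% in su(f)-KD, 17.7% and 21.1% in CstF64-KD, 14.7% and 24.2% in CPSF6-KD, 37.3% and 21.7% in PABP2-KD and 6.86% and 33.9% in CstF50-KD. Totals of these entries passed as higher in 2 in PCF11-KD (23.6% of all genes), 2 in PCF11-NIG-KD (20.8%), 6 in cbc-KD (32.6%), 5 in CstF64-KD (24%), 4 in CstF50-KD (18.1%), 5 in su(f)-KD (25.3%), 7 in CPSF6-KD (20.6%) and 4 in PABP2-KD (32.6%). They passed as lower in 3 (21.9%), 5 (22.9%), 5 (30.1%), 4 (23.6%), 2 (17.5%), 5 (25%), 1 (17%) and 3 (29.5%), in the same order. The median total change of the list was -0.24, 0.00439, -0.17, 0.04, 0.22, 0.20, 0.45 and 0.18 in that order, beside medians of all genes from -0.02 to 0.06.

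Single factors differed. In cbc-KD the proximal share fell for chinmo, a BTB zinc finger protein (81.0% ± 0.825 in control to 15.7% ± 1.10), ken, another BTB zinc finger protein (90.7% to 14.3% ± 0.761), phtf (97.4% ± 0.643 to 38.7% ± 1.16) and Hr39, a nuclear receptor (26.5% ± 5.18 to 1.76% ± 1.82). It also fell there for pho, which recruits Polycomb complexes to DNA (58.1% to 14.1%), Clamp, a zinc finger protein of dosage compensation (93.9% to 73.8%), jim (85.2% to 56.7%), tgo, the partner of bHLH-PAS factors (72.9% to 56.5%), Sfmbt (54.8% to 26.6%), zfh1 (24.0% to 6.7%) and the lola-PD entry (93.8% to 71.2%). Med, the fly Smad4, did not pass in cbc-KD (20.1% and 15.1%), nor did the lola-PAA entry (78.6% and 83.0%).

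Like acj6, chinmo, ken and phtf passed as distal in CstF64-KD, with log2 odds of -1.08, -1.66 and -1.89, while zfh1 passed as proximal (1.65). In CPSF6-KD, where acj6 did not pass, chinmo, ken and phtf passed as distal too (-1.30, -1.83 and -1.09), as did Hr39 (-1.37) and tgo (-1.22). There jim (2.15), zfh1 (1.88) and lola-PD (3.69) passed as proximal, as did lola-PAA, at a proximal share of 100%. In PABP2-KD pho went from 58.1% to 8.6% (-3.91), as phtf (-3.48), ken (-2.23), Clamp (-1.87) and Hr39 (-1.28) also moved distal, while jim (2.65) and lola-PD (3.44) moved proximal.

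Of 53 names looked for on a list made for the Wnt pathway, whose nuclear end is pan, 5 genes were on the site list. The names include an alias, and the part of each gene in the pathway was not examined. In cbc-KD 4 of 5 moved distal, where 60.6% of all genes did, namely Duba, a deubiquitinase (95.1% ± 0.291 to 26.3% ± 0.782), dsh, which relays the signal from Frizzled (94.6% to 60.2%), dco, a casein kinase (66.0% ± 0.823 to 28.5% ± 17.9), and slmb, a ubiquitin ligase subunit that acts on Armadillo (91.5% to 76.3%). tws, a regulatory subunit of protein phosphatase PP2A, did not pass (48.4% and 39.7%). The total of dsh fell in cbc-KD by a log2 change of -3.23, in PCF11-KD by -1.34, in PABP2-KD by -1.08, in PCF11-NIG-KD by -1.07, in su(f)-KD by -0.97 and in CstF64-KD by -0.73. Totals passed as higher for tws in cbc-KD (1.13) and su(f)-KD (0.64) and for slmb in CstF50-KD (0.54) and PABP2-KD (0.64). They passed as lower for dco in PABP2-KD (-1.59) and slmb in PCF11-NIG-KD (-0.49). The median total change of the 5 genes ran from -0.49 in PCF11-NIG-KD to 0.08 in cbc-KD. By knockdown, 17% to 30.1% of all genes passed as lower and 18.1% to 32.6% as higher. In the other knockdowns 1 distal and 0 proximal moves passed in PCF11-KD (43.8% and 9.52% of all genes), 1 and 1 in PCF11-NIG-KD (33.9% and 12.4%), 1 and 2 in CstF64-KD (17.7% and 21.1%), 0 and 3 in CstF50-KD (6.86% and 33.9%), 1 and 1 in su(f)-KD (26.1% and 11.6%), 1 and 0 in CPSF6-KD (14.7% and 24.2%) and 2 and 2 in PABP2-KD (37.3% and 21.7%). The median log2 odds of the 5 genes was 0.48 in PCF11-KD beside -0.84 over all genes, -0.07 beside -0.56 in PCF11-NIG-KD, -2.39 beside -1.76 in cbc-KD, 0.40 beside 0.24 in CstF64-KD, 0.999 beside 0.75 in CstF50-KD, 0.20 beside -0.23 in su(f)-KD, 0.60 beside 0.48 in CPSF6-KD and 0.60 beside -0.46 in PABP2-KD.

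Of 28 Hox genes and regulators of Hox expression looked for beside Antp, 6 were on the list, all of the Polycomb group, and pho and Sfmbt among them are also on the list of transcription factors above. Scm moved distal in PCF11-KD (80.3% ± 0.295 to 46.3% ± 1.42), PCF11-NIG-KD (60.7%), cbc-KD (44.2%) and su(f)-KD (64.3%), and its total fell in PCF11-KD, PCF11-NIG-KD, cbc-KD, CstF64-KD and su(f)-KD by log2 changes of -1.03, -0.65, -1.27, -0.51 and -0.69. Asx moved distal in PCF11-KD, cbc-KD and PABP2-KD (-1.23, -1.78 and -1.35) and proximal in CstF50-KD (2.00). Su(z)12 moved proximal in CstF64-KD (2.37), CstF50-KD (2.11) and su(f)-KD (2.16). Pc, with a mean of 31.2 counts per library, moved proximal in su(f)-KD (1.92) and CPSF6-KD (1.87). The total of Su(z)12 passed as higher in cbc-KD (1.02), su(f)-KD (0.56), CPSF6-KD (0.57) and PABP2-KD (0.90). So did those of Sfmbt in cbc-KD (0.52) and pho in CPSF6-KD (0.73), and that of Pc was lower in CstF50-KD (-1.37). The median total change of the 6 genes ran from -0.18 in CstF50-KD to 0.24 in CPSF6-KD. By knockdown, 17% to 30.1% of all genes passed as lower and 18.1% to 32.6% as higher.

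Counted over these 6, moves toward distal and proximal passed in 3 and 0 in PCF11-KD (43.8% and 9.52% of all genes), 2 and 0 in PCF11-NIG-KD (33.9% and 12.4%), 4 and 0 in cbc-KD (60.6% and 6.67%), 0 and 1 in CstF64-KD (17.7% and 21.1%), 0 and 2 in CstF50-KD (6.86% and 33.9%), 1 and 2 in su(f)-KD (26.1% and 11.6%), 0 and 1 in CPSF6-KD (14.7% and 24.2%) and 2 and 0 in PABP2-KD (37.3% and 21.7%). The median log2 odds of the 6 genes was -0.63 beside -0.84 over all genes in PCF11-KD, -0.93 beside -0.56 in PCF11-NIG-KD, -1.76 beside -1.76 in cbc-KD, 0.19 beside 0.24 in CstF64-KD, 1.09 beside 0.75 in CstF50-KD, -0.06 beside -0.23 in su(f)-KD, 0.45 beside 0.48 in CPSF6-KD and 0.17 beside -0.46 in PABP2-KD.

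The genes whose proximal share went most like that of acj6 over the 18 libraries were mrj (Pearson r = 0.941), CG33136 (0.931) and CG11779 (0.929), of 523 compared. mrj, a J-domain co-chaperone, went from 96.5% in control to 13.1% in cbc-KD and 43.7% in PCF11-KD, whereas CG33136 and CG11779 stayed at 91.3% and 83.9% in cbc-KD and so moved far less. For Antp the nearest were CG2258 (0.960), CG31224 (0.954) and Oatp30B, an organic anion transporter (0.945). For Deaf1 they were Snp (0.880), CG16711 (0.835) and mRpS5, a mitochondrial ribosomal protein (0.815), and for pan CG1663 (0.724), IntS10, an Integrator subunit (0.694), and Ire1, the sensor of unfolded proteins (0.685). Among the 4 genes themselves r was 0.807 between acj6 and Antp, 0.367 between acj6 and pan, 0.256 between Antp and pan, 0.159 between Deaf1 and Antp, 0.143 between Deaf1 and pan and 0.0652 between acj6 and Deaf1. These values describe 18 libraries in 9 groups, and those of the other genes named were chosen as the highest of many.

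The authors' deposited tables of changes list acj6 and Deaf1 in all 8 comparisons and Antp and pan in none. The tables give a score named PolyAIndex, whose sign in all 16 values was opposite to the change in proximal share here, so that a positive score goes with more distal use. In the authors' deposited tables the acj6 score was 2.68 in cbc-KD, 1.49 in PCF11-KD, 0.915 in su(f)-KD, 0.555 in CstF64-KD, 0.369 in PABP2-KD, 0.233 in PCF11-NIG-KD, -0.0884 in CPSF6-KD and -0.201 in CstF50-KD. The Deaf1 score in the authors' deposited tables was 1.84 in PABP2-KD, 0.681 in cbc-KD, 0.607 in PCF11-NIG-KD, 0.333 in CstF50-KD, 0.160 in CPSF6-KD, 0.123 in PCF11-KD, 0.0455 in su(f)-KD and -0.0286 in CstF64-KD. By the adjusted p in the authors' deposited tables, 7 of 8 acj6 values and 6 of 8 Deaf1 values were under 0.05, where the edgeR test here passed 7 and 3.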

How the data were processed

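The members and gene lists were chosen with earlier results of these data known. The deposited tables hold raw counts per poly(A) site, made by the authors with PolyA-miner on their own site list, whose selection is not given in the sources used here; per the run logs counting was unstranded, without molecular identifiers, on blocks of 30 bases, with the BDGP6 genome. Bowtie and SAMtools are named, without versions, in the submitters' processing notes. The authors' deposited result tables also give a score (PolyAIndex) and adjusted p-values. The 8 tables share sites and control columns and were joined into 18 libraries.

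Those 525 genes that averaged 10 or more counts in a library entered the fits, made by edgeR 4.0.16 under R 4.3.3 (2-sided quasi-likelihood F test on all 18 libraries, Benjamini-Hochberg adjustment within each comparison, threshold 0.05). Site use was tested as log2 odds of proximal against distal counts with a coefficient per library, and totals and sites with TMM scaling. Prior counts enter the fits, so no fold is given where a site had 0 counts in a group. The steps were tested on simulated data. Intervals are Wilson 95%, and the limit for 0 counts is 3 counts of the group's total; both cover counting error only. Named beside the members were, for each, the 3 genes with the highest Pearson r of the proximal share over libraries, and of each list every measured gene or, above 12, the 12 with most counts. Alternatives were DESeq2 1.42.0, no filter on low counts, controls with 1 knockdown, other scalings, a replicate block, all other sites in place of the distal one, summed counts, and each library left out. A genome sequence was not used here, so poly(A) signals were not searched.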

Additional observations from a re-analysis of the deposited data

Results flagged for a closer look

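The difference between the PCF11 RNAi lines, tested directly as PCF11-NIG-KD minus PCF11-KD with edgeR over 525 genes, passed for 4 values of these genes. In site use it was 2.34 in log2 odds for acj6 and 2.82 for Antp, less distal with the NIG line. In totals it was a log2 change of -1.02 for acj6 and -1.06 for Deaf1, lower with the NIG line. The acj6 difference in use held without each library in turn. The Antp difference in use ended without PCF11-KD replicate 2 (1.78) or PCF11-NIG-KD replicate 1 (2.47) or 2 (3.27), and without either cbc-KD, su(f)-KD or CPSF6-KD library (2.82 to 2.83). It also ended with DESeq2 (2.90) and the replicate block (2.82). The Deaf1 difference in total ended without any 1 of the 4 libraries compared (-1.19 to -0.83), and the acj6 one without PCF11-KD replicate 2 (-0.72) or PCF11-NIG-KD replicate 1 (-0.88). The remaining PCF11 in each line was not analysed here, and its part was not tested. With 2 libraries a group, no sample was tested as standing apart from its group.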

How the results depend on the processing

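Over the 4 genes and 8 knockdowns, 13 of 32 pairs passed for site use, 21 of 32 for totals and 27 of 48 for site levels. With DESeq2 the counts were 12, 19 and 24, with no filter on low counts 13, 21 and 27 (of 64 then tested), and with only the controls and 1 knockdown 11, 23 and 34. Setting the proximal site against all other sites is the same comparison for the members, which have 2 sites each. Against the main scaling, library totals alone moved the median total of all genes by 0.33 in cbc-KD, 0.11 in su(f)-KD and 0.12 in PABP2-KD. DESeq2 size factors gave 21 and 28 for totals and site levels, and library totals alone 22 and 31. Leaving out 1 library at a time gave 9 to 13, 14 to 23 and 22 to 32. Of site use and totals, no value that passed reversed its direction in these alternatives. Leaving out 1 library did reverse 15 values, none of which passed with or without that library. For site use, Deaf1 in su(f)-KD ranged from -0.70 to 0.0280 (reversed without su(f)-KD replicate 1), Antp in PCF11-NIG-KD from -0.91 to 0.39 (control replicate 2), in CstF64-KD from -0.13 to 2.25 (its replicate 1) and in CstF50-KD from -0.15 to 1.59 (its replicate 2). pan ranged in PCF11-NIG-KD from -0.63 to 0.35 (its replicate 2), in cbc-KD from -0.13 to 0.10 (control replicate 1; 0.0227 without cbc-KD replicate 2) and in su(f)-KD from -0.30 to 0.39 (su(f)-KD replicate 1; -0.0343 without control replicate 2). The acj6 total reversed without control replicate 2 in PCF11-KD (-0.45 to 0.17), CstF64-KD (-0.36 to 0.24), su(f)-KD (-0.53 to 0.0748) and CPSF6-KD (-0.38 to 0.22, and 0.0154 without its replicate 1), and without control replicate 1 in CstF50-KD (-0.0280 to 0.57). The labels do not say that replicate numbers pair the libraries. The difference of replicate 1 minus 2 in control was correlated over genes with that in each knockdown. It gave r from -0.05 to 0.20 for site use and from -0.23 to 0.37 for totals. Knockdowns were not compared with each other in this way. With the number as a replicate block the counts were 13, 20 and 27. Over single totals 30 of 32 kept their side of the threshold with DESeq2, 28 with 1 knockdown only and 29 with library totals alone. Summing the counts of both libraries moved no proximal share by more than the spread between replicates. Calls that ended or appeared under a setting are given beside their values above, and the causes were not tested. The planned search for poly(A) signals was not run. Depth limits pan most, with 26 control counts, and the distal sites of Antp and pan.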
